A study of Mus musculus with 4 samples.

Results

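Among the 3389 regions that the authors listed as differing in DNA methylation between WT and IRF8KO mouse microglia, 606 (17.9%, 95% Clopper-Pearson interval 16.6 to 19.2) were distal intergenic regions. They were chosen by position alone. The midpoint lay in no protein-coding gene of GENCODE release M21 on GRCm38 (mm10), no base lay on a protein-coding exon, and the region was more than 50000 bp from the start of every protein-coding transcript. Of these, 30 lay in a window beside Sall1, the megabase that ends at position 90000000 of chromosome 8, and 576 lay elsewhere. Values are given with and without that window where it changes them. The other listed regions comprised 1693 in introns, 618 between genes but within 50000 bp of a start, 333 on exons outside promoters and 139 with the midpoint within 1000 bp of a start.

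Whole-genome bisulfite sequencing was carried out on FACS-sorted, untreated microglia of C57BL/6J mice aged 3 months. The WT group and the IRF8KO group, which lacks the transcription factor IRF8, held 2 samples each. The labels name neither the allele nor whether the deletion reached other cells, and do not say whether the samples of a group came from separate mice. The deposited tables hold 1 comparison of the groups without values for single samples. The spread between replicates and the read depth can therefore not be given, and the labelled cell type could not be checked against marker genes. In the tables the groups carry a number in place of a genotype. A positive difference is called higher in the first group, on a scale of methylation level from 0 to 1, and no genotype is attached to either direction.

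DNA methylation at CpG dinucleotides is high over most of the mammalian genome and low at active promoters and enhancers, and enhancers can act on a gene from long distances. In macrophages, many enhancers are bound by PU.1, an ETS family factor that recognises the core GGAA. IRF8 binds DNA poorly alone and is recruited with PU.1 to composite elements, in which an ETS core is followed by the IRF core GAAA.

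The ETS-IRF composite element, taken here as GGAA and GAAA separated by 2 free bases on either strand, was present in 44 of the 268 distal regions lower in the first group (16.4%, 12.2 to 21.4) and in 7 of the 338 higher in it (2.07%, 0.837 to 4.22). Sequences of 200 bp around the element (GRCm38.p6 as given by RefSeq, 5′ to 3′) are shown for the 6 lower regions with the largest area score, the sum of the site statistics of a region, because this element separates the directions more than any other motif searched. For this choice at most 1 region per 100000 bp was taken, and 1 chromosome was left out. The element is in capitals.
Zfp462 (chr4:54470178-54470377, minus strand): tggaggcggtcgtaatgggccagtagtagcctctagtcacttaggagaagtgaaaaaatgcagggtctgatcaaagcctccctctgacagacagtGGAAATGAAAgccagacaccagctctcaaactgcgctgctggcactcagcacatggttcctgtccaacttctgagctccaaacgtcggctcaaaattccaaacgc
Klf14 (chr6:31169493-31169692, plus strand): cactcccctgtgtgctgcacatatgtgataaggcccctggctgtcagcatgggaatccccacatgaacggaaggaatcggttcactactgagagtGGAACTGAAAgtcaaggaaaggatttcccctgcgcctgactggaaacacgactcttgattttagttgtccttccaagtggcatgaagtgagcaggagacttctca
Arid5b (chr10:68378183-68378382, minus strand): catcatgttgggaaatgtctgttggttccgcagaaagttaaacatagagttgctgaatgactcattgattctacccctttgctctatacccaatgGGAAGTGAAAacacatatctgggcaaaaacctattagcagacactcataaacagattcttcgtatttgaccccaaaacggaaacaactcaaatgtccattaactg
Irs2 (chr8:10830946-10831145, minus strand): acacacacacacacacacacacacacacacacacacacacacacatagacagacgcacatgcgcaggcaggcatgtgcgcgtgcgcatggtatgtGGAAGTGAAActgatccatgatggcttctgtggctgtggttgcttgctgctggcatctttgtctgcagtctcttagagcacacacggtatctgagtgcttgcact
Id2 (chr12:25249035-25249234, plus strand): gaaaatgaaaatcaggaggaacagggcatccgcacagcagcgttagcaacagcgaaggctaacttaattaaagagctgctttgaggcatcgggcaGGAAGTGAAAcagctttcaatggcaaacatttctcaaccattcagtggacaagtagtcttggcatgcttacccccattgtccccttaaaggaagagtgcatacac
Zeb2 (chr2:45244270-45244469, plus strand): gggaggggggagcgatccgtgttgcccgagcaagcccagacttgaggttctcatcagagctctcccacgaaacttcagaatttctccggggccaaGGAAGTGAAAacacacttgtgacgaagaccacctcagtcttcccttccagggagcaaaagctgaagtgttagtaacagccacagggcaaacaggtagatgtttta
The names are those of the nearest protein-coding start, which marks a position and was not tested as a target. For contrast, the 2 higher regions with the element and the largest area scores are given in the same way.
Glra2 (chrX:165547369-165547568, plus strand): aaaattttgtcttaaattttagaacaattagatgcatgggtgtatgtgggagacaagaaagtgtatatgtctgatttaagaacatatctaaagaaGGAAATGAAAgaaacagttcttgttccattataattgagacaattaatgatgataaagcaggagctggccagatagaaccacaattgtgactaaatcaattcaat
Slc22a27 (chr19:8019334-8019533, minus strand): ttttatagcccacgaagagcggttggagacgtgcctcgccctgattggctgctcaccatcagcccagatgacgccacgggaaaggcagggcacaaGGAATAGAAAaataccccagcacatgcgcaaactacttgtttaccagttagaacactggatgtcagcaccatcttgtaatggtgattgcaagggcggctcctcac
The regions of the largest area score without the element, 1 per direction, show what such regions look like at their midpoint and are in lower case throughout.
Gpc5 (chr14:114866821-114867020, plus strand): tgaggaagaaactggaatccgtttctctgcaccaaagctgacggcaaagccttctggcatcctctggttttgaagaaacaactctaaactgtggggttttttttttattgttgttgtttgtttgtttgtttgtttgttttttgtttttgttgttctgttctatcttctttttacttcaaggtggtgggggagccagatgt
Zfp619 (chr7:39655517-39655716, plus strand): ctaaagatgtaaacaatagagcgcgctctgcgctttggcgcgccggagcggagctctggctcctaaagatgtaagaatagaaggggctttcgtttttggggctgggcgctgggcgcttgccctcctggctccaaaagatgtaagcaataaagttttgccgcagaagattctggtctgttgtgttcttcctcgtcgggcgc

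The regions behind these sequences varied in the size of their difference, and the median absolute difference of all 606 regions was 0.404. Arid5b encodes a DNA-binding protein of the ARID family, and the region 99469 bp from its start had the most negative difference of all 606 regions, -0.679 in the authors' deposited table over 17 cytosines, all 17 with a false discovery rate (FDR) under 0.05. The authors' deposited table gives -0.548 for the region 474346 bp from Zfp462, -0.520 for that near Klf14, -0.395 for that near Irs2, -0.508 for that near Id2 and -0.537 for that near Zeb2. Klf14, Id2 and Zeb2 encode transcription factors or their inhibitors, and Irs2 encodes an adaptor of insulin signalling. Of the 28 listed sites in the Klf14 region all 28 had an FDR under 0.05, and of the 20 in the Zeb2 region all 20, against 11 of 31 in the Irs2 region. The Irs2 sequence opens with a run of CA dinucleotides before the element. The higher Glra2 region, on the X chromosome, was the longest of all 606 regions at 4117 bp but held 15 cytosines, all with an FDR under 0.05, and the authors' deposited table gives 0.535. The higher Slc22a27 region had 0.346 in the authors' deposited table, and none of its 17 sites passed the FDR threshold.

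Because regions with the element were longer (median 322 bp in the lower direction, against 185.5 bp for lower regions without it), the search was repeated in a fixed 300 bp around each midpoint. The element was then found in 53 of 268 lower distal regions (19.8%, 15.2 to 25.1) and 11 of 338 higher ones (3.25%, 1.64 to 5.75). All 300 bp tiles of the genome that meet the distance rule held it in 3.42% of cases, and those with at least 3 CpGs in 3.03%. The share in higher regions was thus close to the genome's, and that in lower regions was above it. Leaving out the chromosome 8 window gave 20.1% and 3.47%. Regions outside the distal set had 21.6% (19.4 to 24.0) among those lower and 2.18% (1.49 to 3.06) among those higher, so that the contrast between directions was also seen outside the distal set. The difference between distal and other regions was not tested, and the intervals overlap.

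Within the lower distal regions the share with the element varied with size but not steadily. In 300 bp around the midpoint it was found in 13.4% of those with 4 or 5 cytosines, 18.6% with 6 to 9, 28.0% with 10 to 19 and 17.8% with 20 or more, and these differences were not tested. Cytosines are counted on each strand, so that a CpG can give a pair. Not all lay on a CpG of the reference. Of the listed sites 81.8% did so in distal regions, and 78.0% over the whole list. Distal regions with 4 or 5 cytosines, of both directions, held a median of 1 reference CpG. The 44 lower regions with the element in the region itself had a median absolute difference of 0.435 and 13 cytosines, against 0.403 and 8 for the 224 without it, although a longer region has more room for a match. A site with an FDR under 0.05 was present in 40 of the 44 (90.9%), against 181 of 224 (80.8%). The element nearest the midpoint lay a median of 59.5 bp from it, against 80.5 bp for positions spread evenly over each region. In 21 of 44 regions (47.7%) it lay in the inner 50% of the region, so that no gathering at the centre was seen by that count. The distance is shortened in the 4 regions with more than 1 element, and neither value was tested. The nearest element was read on the plus strand in 24 and on the minus strand in 20. Of all 48 elements in lower distal regions, 27 (56.3%, 41.2 to 70.5) had T as the second free base, as in the capitals of all 6 lower sequences above. That base was T in 26.8% of all 147221 matches in the distal genome, in 3 of 7 in higher distal regions, and in 59.1% of 247 in lower regions outside the distal set. In higher regions outside the distal set it was T in 2 of 33 matches (6.06%, 0.743 to 20.2).

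The remaining motifs differed less between the directions. Shares are for 300 bp around the midpoint, on both strands. AP-1 (TGA and TCA 1 base apart), bound by Fos and Jun family factors, was present in 13.9% (10.4 to 18.1) of higher and 10.8% (7.37 to 15.2) of lower distal regions, against 8.95% of distal tiles. The RUNX letters TGTGGT were in 24.6% (20.1 to 29.5) of higher and 18.7% (14.2 to 23.8) of lower regions, against 18.5% of tiles. C/EBP (TTGC and CAA with 0 or 1 base between) was in 10.4% (7.32 to 14.1) and 7.09% (4.32 to 10.9), against 7.17%. These intervals overlap between directions in the distal set. Outside the distal set, the intervals of the directions did not overlap for AP-1, RUNX or C/EBP, and higher regions had the larger share. Higher and lower shares there were 15.6% and 8.61% for AP-1, 29.6% and 19.04% for RUNX, and 10.6% and 5.41% for C/EBP. These differences were not tested. The shares that follow are again for the distal set. A longer PU.1 type motif (GAG followed directly by GAAGT), which holds the ETS core, was in 3.85% of higher and 4.10% of lower regions. Both were above the 1.80% of tiles. The interferon response core, GAAA and GAAA 2 bases apart, was in 5.33% of higher and 7.46% of lower regions, against 5.54% of tiles. The MEF2 letters (CTA and TAG 4 bases apart) were in 5.92% and 2.99%, against 5.19%, and the SMAD letters CAGAC in 50.6% and 53.4%, against 42.2%. Distal tiles with at least 3 CpGs held the MEF2 letters in 4.34% and the SMAD letters in 47.6%. The latter lies inside the SMAD intervals of higher (45.1 to 56.0) and lower regions (47.2 to 59.5). A match is a description of the letters and not evidence of binding.

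**Figure D1:**
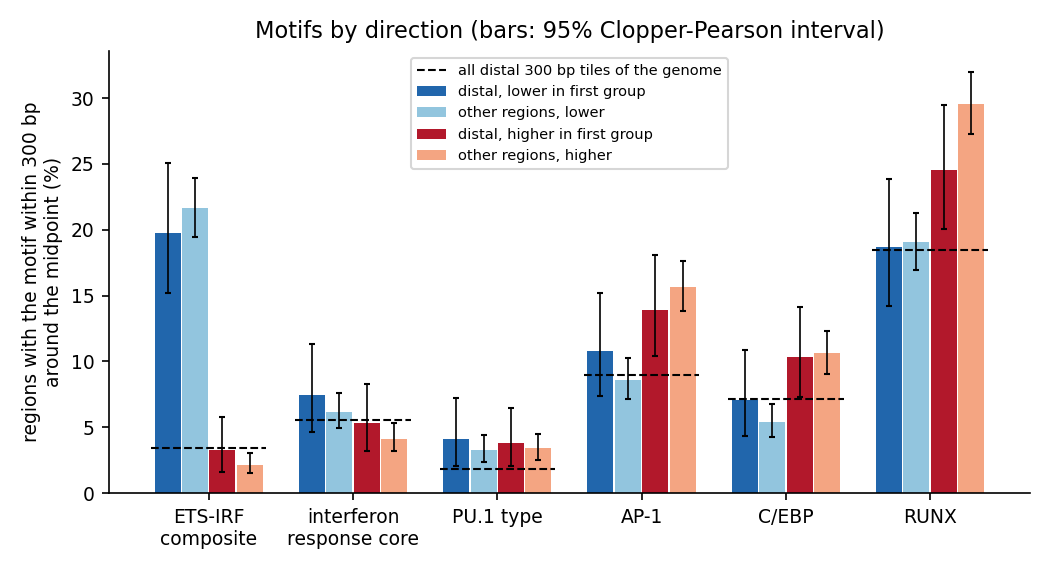
Share of regions (%, vertical axis) with each of 6 motifs within 300 bp around the midpoint, for distal and other listed regions by direction in the first group, with 95% Clopper-Pearson intervals and the level in all distal tiles of the genome as dashed lines. The composite element stands at 19.8% in lower and 3.25% in higher distal regions, against 21.6% and 2.18% in the other regions.

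In the first group, 338 of the 606 regions (55.8%, 51.7 to 59.8) had higher methylation and 268 lower. The direction turned when small regions were left out, with 44.5% (38.0 to 51.2) higher among regions with at least 10 cytosines. It was 47.6% (41.9 to 53.3) with at least 3 reference CpGs and 47.3% (42.0 to 52.7) with more than 5 cytosines. Each of these intervals includes an even split. Outside the chromosome 8 window the share higher was 55.0% (317 of 576), and inside it 70.0% (21 of 30, 50.6 to 85.3). Among the other listed regions 52.8% were higher, and the intervals overlap. Of those other regions with at least 10 cytosines, 635 of 1324 were higher. In the authors' deposited table the differences of higher regions reached 0.663, in a region of 4 cytosines 125023 bp from Tomm20, which encodes a subunit of the mitochondrial import receptor. The median absolute difference was 0.404 (quartiles 0.355 and 0.453), against 0.405 in the other regions. Only 10 regions had an absolute difference under 0.2. In 1 of them, 2044575 bp from Pcdh9 and the most distant of all, the difference was 0.0235 while the area score was negative.

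A site with an FDR under 0.05 was present in 478 of the 606 regions (78.9%), against a background of 77.9% of all listed regions, so that the distal regions did not stand apart. All listed sites passed in 49 regions and none in 128. Of the 6119 listed sites in them 2908 passed (47.5%), against 18.7% of all listed sites, 0.118% of all tested positions and 49.7% of the sites in the other regions. Sites and regions come from the same comparison, so that only the share in the other regions is a like set. The lower regions were larger than the higher ones. They had a median of 9 cytosines and 208.5 bp, against 5 cytosines and 157 bp, and 82.5% held a site past the FDR threshold against 76.0%. They also held fewer repeats. More than 50% of the bases were soft-masked as repeats in 28 of 268 lower (10.4%, 7.06 to 14.7) and 66 of 338 higher regions (19.5%, 15.4 to 24.2). In the other listed regions the shares were 7.01% and 8.78%. Lower regions were larger there too, with medians of 10 cytosines and 226 bp against 8 cytosines and 185.5 bp. A site past the FDR threshold was in 79.1% of those lower and 76.4% of those higher.

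The direction was also counted by distance to the nearest start. The share higher in the first group was 50.2% (43.1 to 57.4) of the 201 regions up to 100000 bp away, 56.3% of 199 up to 200000 bp, 55.5% of 146 up to 500000 bp and 73.3% (60.3 to 83.9) of the 60 beyond. These 60 were also the smallest and least certain, with a median of 1 reference CpG against 4 in the nearest group, and a site past the FDR threshold in 60.0% against 80.6%. Among regions with 4 or 5 cytosines, the shares from near to far were 55.2% (41.5 to 68.3), 65.8%, 71.4% and 80.4% (66.1 to 90.6). Among regions with 10 or more cytosines they were 49.0% (39.0 to 59.1), 46.6% (34.8 to 58.6), 34.7% (21.7 to 49.6) and 20% (1 of 5 regions, 0.505 to 71.6). The intervals overlap within each size class, and no trend with distance was tested. Over all distances, 67.6% (61.4 to 73.3) of the 253 regions with 4 or 5 cytosines were higher in the first group, and 40% (28.9 to 52.0) of the 75 with 20 or more. Repeats moved with both size and distance. More than 50% of the bases were repeats in 24.9% of the regions with 4 or 5 cytosines and 6.67% of those with 20 or more, and in 28.3% of the regions beyond 500000 bp and 14.4% of the nearest group. Their part in the direction was not tested.

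Among single sites the share higher in the first group rose with distance, as did that among regions with 4 or 5 cytosines. Neither rise was tested. In the distal part of the genome 67.9% of the 98296 listed sites were higher in the first group, against 58.4% elsewhere. From near to far the share rose through 59.9%, 65.2%, 68.8% and 74.7%. Among sites with an FDR under 0.05 it rose through 57.7%, 63.8%, 65.8% and 74.8%, while the median standard error of the difference fell from 0.0817 to 0.0736. Inside the distal regions 49.2% of sites were higher, and at distal sites outside any region 69.1%. Neighbouring sites are not independent, so that counting intervals on sites are too narrow.

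**Figure D2:**
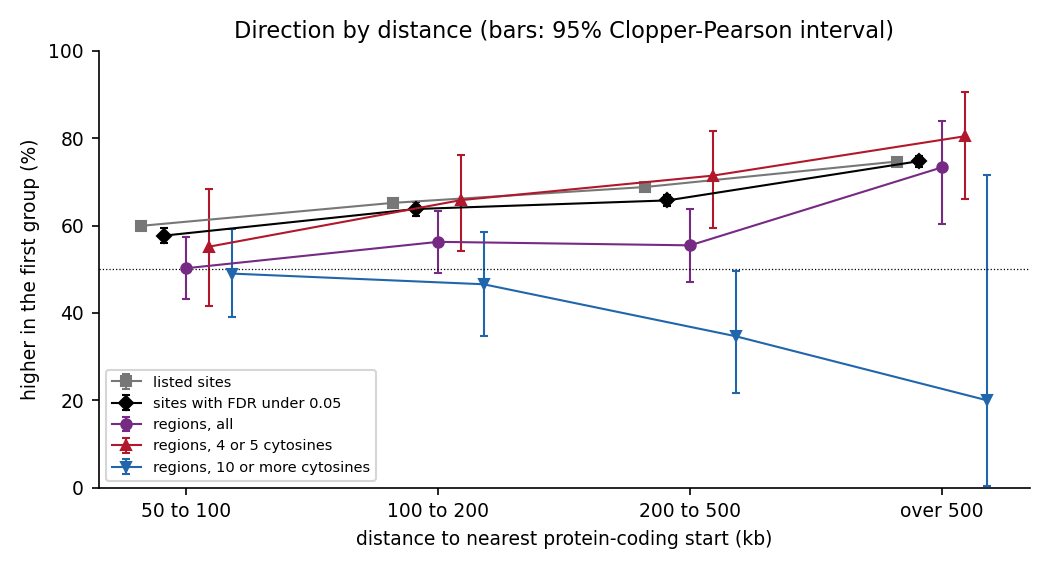
Share higher in the first group (%, vertical axis) by distance to the nearest protein-coding start (kb), for single sites and for distal regions by number of cytosines, with 95% Clopper-Pearson intervals. Listed sites and regions with 4 or 5 cytosines reach 74.7% and 80.4% beyond 500000 bp, and regions with 10 or more cytosines stand at 49.0% nearest and 20% (1 of 5) farthest, with overlapping intervals.

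**Figure D3:**
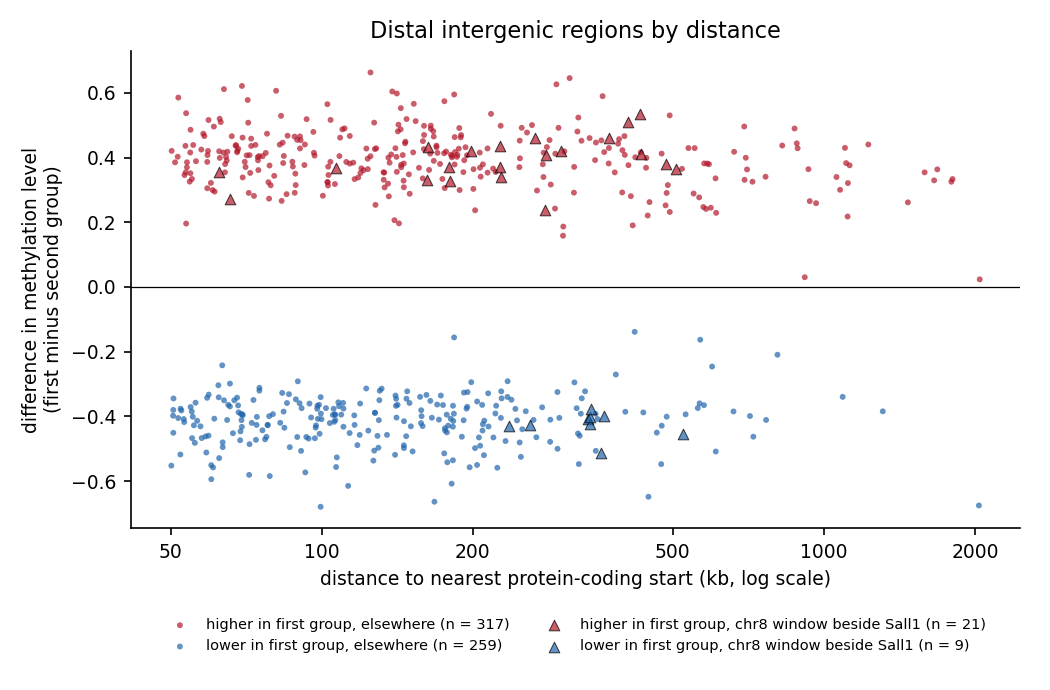
Deposited difference in methylation level (first minus second group, vertical axis) of each of the 606 distal regions against the distance to the nearest protein-coding start (kb, log scale), with the 30 members of the chromosome 8 window as triangles. Differences lie between -0.679 and 0.663 at all distances, and beyond 500000 bp 44 of 60 regions are above 0.

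Distal sequence was poor in listed regions relative to its size. It made up 40.6% of the genome in 300 bp tiles, 31.6% of the reference CpGs, 28.0% of the tested positions and 36.5% of the listed sites, but 17.9% of the regions. Per 100000 tested positions there were 5.07 regions in the distal part and 9.07 elsewhere. Single listed sites were instead more frequent there, at 0.822% of tested positions against 0.557%, and so were those with an FDR under 0.05, at 0.144% against 0.108%. Fewer of these sites were gathered into regions. Regions took in 16.9% of the distal sites past the FDR threshold, against 55.0% elsewhere. CpGs were sparser there, with 1.92 per tile against 2.84, and the part of this spacing in the lower number of regions was not tested. The distal regions themselves held a median of 3 reference CpGs against 4, and 299 of 606 (49.3%) held fewer than 3, against 35.1% of the others.

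The largest area scores in the lower direction outside the window belonged to 5 regions with many cytosines. The region 223673 bp from Gpc5, a glypican gene, had 106 cytosines over 3313 bp (chromosome 14, 114865265 to 114868577), 92 of them with an FDR under 0.05, and a difference of -0.559 in the authors' deposited table. The region near Nebl, which encodes an actin-binding protein of muscle (chromosome 2, 17065057 to 17065911), had -0.547 in the authors' deposited table, with all 48 sites past the threshold. The region 60250 bp from Smad7, an inhibitor of TGF-beta signalling, had -0.594 in the authors' deposited table, with all 39 sites past it. The authors' deposited table gives -0.527 near Arhgap5, a GTPase activating protein (chromosome 12, 52396046 to 52396883), and -0.489 near Prdm1, which encodes the transcriptional repressor BLIMP1 (chromosome 10, 44604446 to 44605167). None of these 5 held the composite element.

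The largest area scores in the higher direction were of mixed quality. The region 137486 bp from Zfp619, a zinc finger gene (chromosome 7, 39655252 to 39655983), had 81 cytosines and a difference of 0.410 in the authors' deposited table, but 3 of its 81 sites passed the FDR threshold and 71.0% of its bases were repeats. The region near Diaph3, a formin gene (chromosome 14, 86398066 to 86398587), was 89.7% repeat, with 41 of 64 sites past the threshold and 0.392 in the authors' deposited table. The regions near Uaca (chromosome 9, 61044788 to 61045489), Cebpb (chromosome 2, 167761270 to 167762025) and Gpr12, an orphan receptor gene (chromosome 5, 146653388 to 146654093), held at most 13.8% repeat. The authors' deposited table gives them 0.492, 0.436 and 0.428, and 44 of 47, 37 of 49 and 37 of 42 sites passed.

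The window on chromosome 8 held 40 listed regions, of which the 30 distal ones spanned 463200 bp upstream of the Sall1 start, from 89106658 to 89569857. SALL1 is a transcription factor required for microglial identity. The 30 regions made up 4.95% of all distal regions, formed the longest series in which each was within 100000 bp of the next, and 29 of them held a site with an FDR under 0.05. They fell into 6 runs of 1 direction. The 11 regions from 62496 to 227254 bp from the start were all higher in the first group, from 0.271 to 0.437 in the authors' deposited table. A run of 2 lower regions (-0.430 and -0.427) and a run of 4 higher ones (0.238 to 0.459) followed. From 339743 to 364908 bp lay 6 lower regions (chromosome 8, 89383905 to 89409449), with -0.512 to -0.377 in the authors' deposited table. Beyond them 6 regions were higher again, up to 0.535, and the last, 525279 bp away, was lower at -0.453. The only composite element was in the lower region from 89409070 to 89409449. The higher regions of the window were small, with a median of 5 cytosines against 10 in the lower ones. Over the window, 70 sites passed the FDR threshold in each direction, of 143 listed in the higher and 117 in the lower regions. In the 3 higher regions of the largest area score 12 of 21, 1 of 22 and 6 of 10 sites passed, and in the 3 lower ones 21 of 25, 19 of 22 and 7 of 22. On the far side of the gene, 2 more distal regions had Sall1 as nearest start, 1 lower (-0.412) and 1 higher (0.295).

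**Figure D4:**
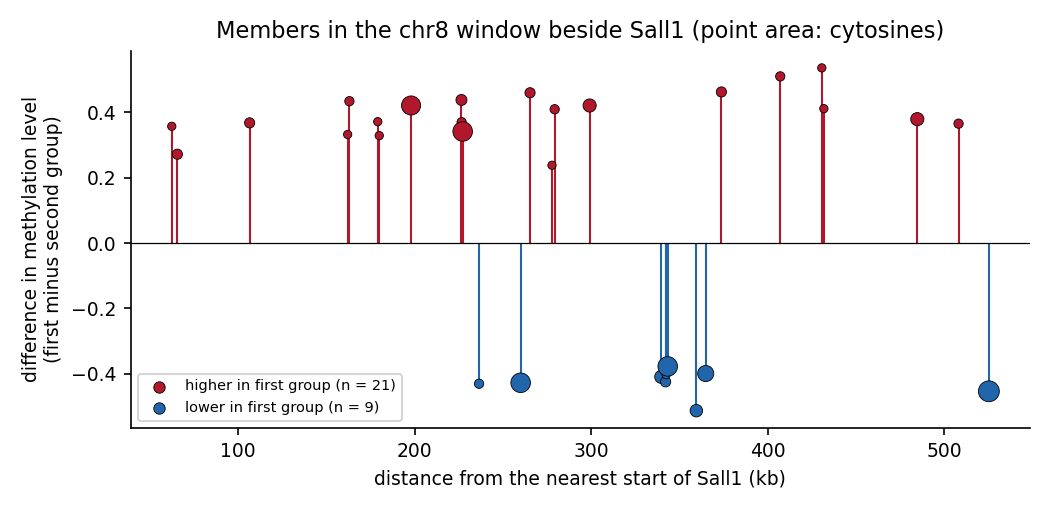
Deposited difference in methylation level (first minus second group, vertical axis) of the 30 distal regions of the chromosome 8 window by distance from the nearest Sall1 start (kb), with point area in proportion to the number of cytosines. Higher and lower regions alternate in runs, with 11 higher regions nearest the gene and 6 lower regions between 339743 and 364908 bp.

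Most genes that were the nearest start of a distal region had only 1. Of 5487 genes with any distal sequence nearest to them, 429 (7.82%) had a region, 339 of these had 1, and 15 had 4 or more. Of the 15 genes, 3 had only higher regions, 3 only lower regions and 9 both. All 4 regions near Cebpb, a C/EBP family transcription factor of myeloid cells, were higher, from 0.405 to 0.537 in the authors' deposited table, as were the 4 near Maf, a macrophage transcription factor, from 0.404 to 0.598. All 21 sites passed the FDR threshold in the Maf region of the largest difference (chromosome 8, 115565392 to 115566004), but none of 33 in the Maf region from 115536751 to 115537122. All 5 regions near 1700021F07Rik were higher. All 5 near Gpc5 and all 5 near Arhgap5 were lower, from -0.585 to -0.395 for the latter. Near Prdm1, 5 of 7 regions were lower, all 5 in the lincRNA gene Gm35154. Near the proto-oncogene Myc, 4 of 5 were lower, from -0.397 to -0.342, and those 4 lay in the lincRNA gene Pvt1. Near Tomm20, 5 of 6 were higher.

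The 4 lower regions assigned to Adam6b show a limit of the rule. Immunoglobulin segments are not annotated as protein-coding, and these regions (chromosome 12, 113424174 to 113430039) lay in the heavy chain locus, 2 of them over the joining segments Ighj1 to Ighj4. The authors' deposited table gives -0.495, -0.529, -0.558 and -0.460, and 18 of 23, 10 of 13, 8 of 8 and 16 of 21 sites had an FDR under 0.05. In B cells these segments are joined to the D and V segments of the locus.

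**Figure D5:**
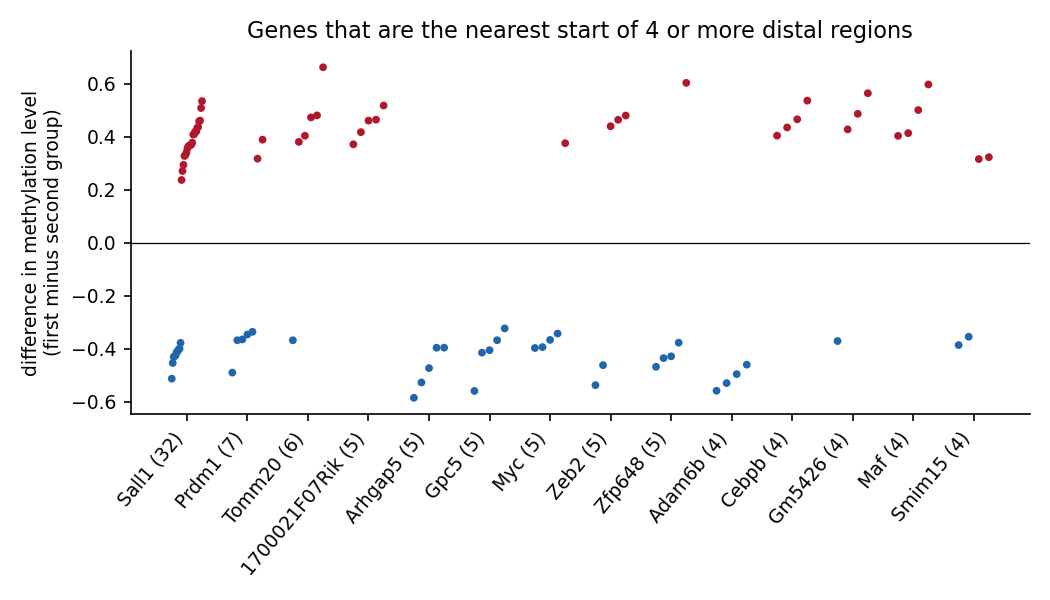
Deposited difference in methylation level (first minus second group, vertical axis) of each distal region of 14 of the 15 genes that are the nearest start of 4 or more, with the number of regions in brackets. Cebpb, Maf and 1700021F07Rik have only higher regions, Arhgap5, Gpc5 and Adam6b only lower ones, and Sall1 has 22 higher and 10 lower.

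Gene lists were compared by their nearest starts. Of 24 genes of microglial identity, 9 had distal sequence nearest to them (4.05 Mb) and 3 had a region, namely Sall1, Maf and Tgfbr2. The 3 regions near Tgfbr2, a TGF-beta receptor, were all lower, with -0.388, -0.474 and -0.360 in the authors' deposited table. None of the 7 disease-associated genes with distal sequence had a region, but those 7 have 0.300 Mb of it in all, where the distal genome held 56.4 regions per 100 Mb. Of 22 myeloid transcription factor genes with distal sequence (6.54 Mb), 9 had regions, 13 higher and 6 lower. Near Zeb2, 3 regions were higher and 2 lower, with higher and lower ones interleaved between 88282 and 147266 bp from its start. The authors' deposited table gives 0.465, -0.537, 0.481 and -0.461 in order of distance, and 0.440 for a region 1226506 bp away that was wholly repeat. Near Klf4, 1 region was lower (-0.476) and 2 were higher (0.298 and 0.415). Both regions near Ets2 were higher (0.487 and 0.402), as were those near Ets1 (0.401) and Meis1 (0.626), whereas those near Jun (-0.452), Id2 (-0.508) and Zfp36l2 (-0.417) were lower. Ifi44 alone of the interferon response genes had distal sequence, and its 1 region (0.354) was wholly repeat with no site past the threshold. Over all genes with distal sequence 7.82% had a region, but the genes of the lists differ in how much of it they have.

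Annotated non-coding genes overlapped the midpoint of 114 regions (18.8%, 15.8 to 22.2), 93 of them lincRNA genes, with 54 higher and 60 lower. In Lncpint 2 of 3 regions were lower, and both regions in Firre, on the X chromosome, were higher. Regions also lay close together. In 73 series of regions within 100000 bp of the next were 227 of the 606 (37.5%), and 47 of these series had 1 direction and 26 had both. The series in the chromosome 8 window held 30 of the 227, and the other listed regions were not counted in this way. The authors' deposited table gives -0.552, 0.421 and -0.398 for the members 50155, 50230 and 50555 bp from a start (Eed, P4ha2 and Asprv1). It gives 0.381, 0.606 and -0.374 for the regions 49947, 49715 and 49629 bp from one (Nnmt, Ptger2 and Kctd1), which were left out.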

How the data were processed

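Reads were trimmed with Trim Galore and aligned with Bismark on mm10, per the submitters' processing notes; how sites and regions were called, and the read depth, is not given in the sources used here. Per the file headers, the deposited region table gives a difference in methylation level, the number of cytosines, the length and an area score; the deposited site table gives a difference, its standard error and a p-value adjusted as FDR. On all 3389 regions the difference was the first minus the second group's level. Columns of values per sample left unused numbered 0.

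From these tables, classes, distances, motifs, CpGs and soft-masked bases were counted with Python 3.11.15, numpy 2.4.6 and pandas 2.3.3 on GENCODE M21 and RefSeq GRCm38.p6. Row numbers of the site table served as an index of tested positions. No test was added: shares carry exact Clopper-Pearson 95% intervals (scipy 1.17.1), which cover counting error only and take regions as independent. The rule and the motif search were tested on simulated data. Named regions were the 5 largest area scores per direction outside the chromosome 8 window and 3 inside, the longest series, those nearest to listed genes, and genes with 4 or more. Tomm20's extreme, the non-coding genes and the immunoglobulin segments were named after their values were seen. The values of 1 gene with 4 regions are not reported here. Members and lists were chosen with earlier results of these data known.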

Additional observations from a re-analysis of the deposited data

How the results depend on the processing

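No paired analysis was possible because the files used here compare groups and give no single-sample values; a coverage minimum and leaving out each replicate were not run for the same reason. Of 65 alternatives, 40 moved a result by less than its interval or a count by less than 1.5 times, among them all 7 without the chromosome 8 window. Regions with at least 10 cytosines, at least 3 reference CpGs or more than 5 cytosines (the last chosen after seeing the data) numbered 229, 307 and 353. Their share higher turned to 44.5%, 47.6% and 47.3%, each with an interval that includes an even split. In the same order, median absolute differences were 0.420, 0.420 and 0.412, lower regions with the composite element 25.2%, 23.0% and 21.5%, and regions with a site past the FDR threshold 84.7%, 84.0% and 82.7%. Distal regions were 14.7% of listed regions with at least 10 cytosines, 14.5% with more than 5, and 12% when a distance of more than 100000 bp was asked for. In place of the composite element, the interferon response core gave 6.72% of lower regions, and the ETS core alone gave 88.1% of lower and 82.2% of higher regions. With T as the second free base, chosen after seeing the data, lower regions had 10.1%, and outside repeats higher regions had 0.592%. An FDR under 0.01 left 52.5% of regions with such a site, and under 0.001 33.3%. Restriction to distances within 500000 bp was also chosen after seeing the data. Fewer regions or letters explain the counts by construction, and the cause of the turned direction was not tested. Depth, which limits every difference, is unknown.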

Other observations

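The distal regions were spread unevenly over chromosomes. Per 100 Mb of distal sequence, chromosome 3 held 38.6 and chromosome 10 held 108, while chromosome 8 held 143 with the Sall1 window and 85.0 without it. The X chromosome held 22.6 and the Y chromosome 1.39, the latter from 1 region in 71.8 Mb. Read depth is not given, and these values were not set against the tested positions of each chromosome. The part of either in them was not tested. Of the 18 regions on X, 14 were higher in the first group. On chromosome 2, 40 of 56 were higher (71.4%), and on chromosome 15, 7 of 19 (36.8%).

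Distal regions nearest to genes of neural adhesion families, chosen by symbol prefix, numbered 18 over 10 of 55 genes with distal sequence, 12 higher and 6 lower. These 55 genes have 57.0 Mb of distal sequence, and the whole distal genome held 56.4 regions per 100 Mb, with 7.82% of its genes having a region and 55.8% of regions higher. A site with an FDR under 0.05 was present in 11 of the 18, against 78.9% of all distal regions. The authors' deposited table gives 0.611 for a Cntn4 region of 4 cytosines that was 93.6% repeat, and 0.417 for a Cdh4 region of 20 cytosines with 9 past the threshold.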
